A study of Mus musculus with 4 samples.

Results

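Synaptic adhesion molecules, taken as a named list of 47 genes in 14 families, were followed in primary mouse cortical culture after knockdown of the insulator protein CTCF. The members were chosen by symbol, through the GENCODE vM21 names of the Ensembl identifiers, and all 47 were found among the 37437 genes of the files. Knockdown used a virus of the adeno-associated kind, aimed at Ctcf (shCTCF) or, as control, at lacZ (shLAC), a bacterial gene that mouse cells do not carry. Both groups therefore carried virus, and each had 2 replicate libraries of total RNA. The labels give no strain, age, time after infection or promoter of the virus, nor do they tie the replicates to independent cultures; the p-values here thus rest on library-to-library spread alone, possibly technical. The comparison asked how the levels of these transcripts differed between CTCF knockdown and control.

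Synaptic adhesion molecules bridge the cleft between an axon terminal and its target cell. Neurexins and the LAR-type receptor phosphatases sit mainly on the presynaptic side, where they bind postsynaptic partners such as neuroligins, LRRTMs, SLITRKs, LRFNs and the NGL proteins encoded by the Lrrc4 genes. Latrophilins bind teneurins and FLRT proteins across the cleft, while NCAM, L1, contactin and SynCAM (Cadm) proteins carry immunoglobulin domains and act in axon growth and bundling as well as at synapses. CTCF binds DNA at insulator sites and many promoters and, with cohesin, holds chromatin loops.

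Of the 47 members, 4 rose in CTCF knockdown (Nrxn2, Ncam2, Ptprs and Tenm4), 5 fell (Nlgn1, Cntnap1, Lrrtm4, Ncam1 and Flrt3) and 38 did not pass the test. The changes were modest: the mean of the called members lay between 66.9% of control, in Lrrtm4, and 131% of control, in Ncam2. The calls are those of limma on log2(scaled TPM + 1) over 11268 protein-coding genes, at a Benjamini-Hochberg adjusted p below 0.05. TPM is a length-corrected share of a library's transcripts, and scaled TPM is that value divided by a median-ratio factor for the library, so levels can be compared between genes and libraries. Over all coding genes in the same fit, 2.58% were called higher and 3.48% lower, against 4 and 5 of the 47 members, which makes 19.1% of members called. The members and this fit were chosen with earlier results of these data known. That share thus describes the list and is no test of it. In a fit over all 12816 genes past the filter, noncoding and short ones included, limma called 1.05% of genes and 0 members. There 20 of the 47 members had an unadjusted limma p below 0.05, beside 2567 of the 12816 genes. The 9 members called in the coding fit then had limma adjusted p between 0.0527 and 0.128. In the values as deposited, with no scaling, limma called 1.46% of the coding genes and again 0 members. There 6 members had an unadjusted limma p below 0.05, beside 1063 of the 11268 coding genes.

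The promoters of members that moved most stably are shown here because CTCF is named for the motif CCCTC. RefSeq promoters on GRCm38.p6 were found for 36 of the 47 members and 6 of the 9 called members. Each sequence is the 250 bases before an annotated start, 5′ to 3′ on the gene's strand, and capitals mark CCCTC or its reverse complement GAGGG. Flrt3 and both Lrrtm4 windows belong to genes that fell, and the Ncam2 and both Tenm4 windows to genes that rose.
Flrt3, chr2:140671477-140671726, - strand: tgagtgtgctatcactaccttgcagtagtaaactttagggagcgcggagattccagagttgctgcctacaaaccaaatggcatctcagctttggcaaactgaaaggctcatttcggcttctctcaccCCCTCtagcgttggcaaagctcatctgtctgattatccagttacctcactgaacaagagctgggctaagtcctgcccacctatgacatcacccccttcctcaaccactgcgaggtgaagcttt
Lrrtm4, chr6:80018627-80018876, + strand: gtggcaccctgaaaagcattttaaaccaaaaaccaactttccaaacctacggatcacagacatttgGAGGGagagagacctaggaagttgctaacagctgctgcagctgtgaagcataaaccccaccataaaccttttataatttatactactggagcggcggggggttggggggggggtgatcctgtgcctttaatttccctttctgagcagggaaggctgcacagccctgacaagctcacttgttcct
Lrrtm4, chr6:80019393-80019642, + strand: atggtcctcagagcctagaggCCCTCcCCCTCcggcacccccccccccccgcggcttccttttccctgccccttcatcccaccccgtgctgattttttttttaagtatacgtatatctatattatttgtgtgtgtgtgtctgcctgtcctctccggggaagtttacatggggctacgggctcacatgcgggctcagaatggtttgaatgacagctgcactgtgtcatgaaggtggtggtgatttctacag
Ncam2, chr16:81200447-81200696, + strand: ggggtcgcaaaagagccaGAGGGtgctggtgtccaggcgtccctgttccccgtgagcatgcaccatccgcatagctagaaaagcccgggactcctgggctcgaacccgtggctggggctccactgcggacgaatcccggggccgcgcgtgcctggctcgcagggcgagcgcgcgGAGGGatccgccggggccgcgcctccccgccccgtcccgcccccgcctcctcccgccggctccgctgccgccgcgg
Tenm4, chr7:96170994-96171243, + strand: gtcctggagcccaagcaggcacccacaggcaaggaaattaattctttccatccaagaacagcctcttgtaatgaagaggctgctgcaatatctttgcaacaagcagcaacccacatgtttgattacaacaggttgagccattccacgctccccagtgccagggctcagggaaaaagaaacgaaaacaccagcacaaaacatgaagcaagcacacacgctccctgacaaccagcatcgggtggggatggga
Tenm4, chr7:96211421-96211670, + strand: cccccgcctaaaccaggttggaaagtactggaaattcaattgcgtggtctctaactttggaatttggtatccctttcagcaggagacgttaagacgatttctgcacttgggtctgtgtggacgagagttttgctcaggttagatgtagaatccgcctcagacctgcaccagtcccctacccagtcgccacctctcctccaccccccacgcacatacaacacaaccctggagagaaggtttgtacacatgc
The Ncam2 window, rich in G and C at 75.2%, and the second Lrrtm4 window held CCCTC at 2 places each, the Flrt3 and first Lrrtm4 windows at 1 place each, and both Tenm4 windows at 0. CCCTC is short and common: on either strand it occurred in 60.5% of all 32851 promoter windows of this length, in 36 of 51 member windows and in 7 of 10 windows of called members. A longer degenerate core of the CTCF motif, searched on both strands, occurred in 2.07% of all windows and in 0 of the 51 member windows. These matches describe letters in the window and not binding.

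Ctcf itself was lower in both libraries labelled as its knockdown. Scaled TPM of Ctcf was 8.11 and 8.80 in control and 3.25 and 3.40 in knockdown, 39.3% of control (log2 fold change -1.13, SE 0.0666, limma adjusted p = 0.00288). Library totals are 1000000 TPM by construction and keep no sequencing depth. One control library, shLAC replicate 2, held 20.2% of its TPM in 13 satellite-like predicted genes, against 0.405% to 1.86% in the other libraries. These genes were picked by a predicted-gene name, at least 100 TPM in a library and a 10-fold range over these same libraries. A large excess in some library was thus a condition of the choice, and the name satellite-like rests on these criteria alone. Their TPM lowered the share left to the remaining genes in shLAC replicate 2. The median log2 fold change of coding genes was 0.17 as deposited and 0.00 after scaling, and changes are given relative to that shift. How much of the shift came from the satellite-like genes was not tested. Neuronal markers such as Tubb3, Map2 and Snap25 were the most abundant of the marker lists, with all 13 neuronal markers in the fit. Of 8 microglial genes, 7, Cx3cr1 and P2ry12 among them, stayed at or below 0.29 TPM and Cd68 was at 1.71 to 2.08 TPM, and the endothelial gene Cldn5 was listed at 0 in all 4 libraries.

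All 47 members passed the filter of at least 1 TPM in at least 2 libraries. Their mean scaled TPM ranged from 1.36 in Cntn4 to 111 in Cntn1, with a median of 16.4, against a median of 6.91 over the coding genes in the fit. The contactin family spanned that whole range.

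**Figure D1:**
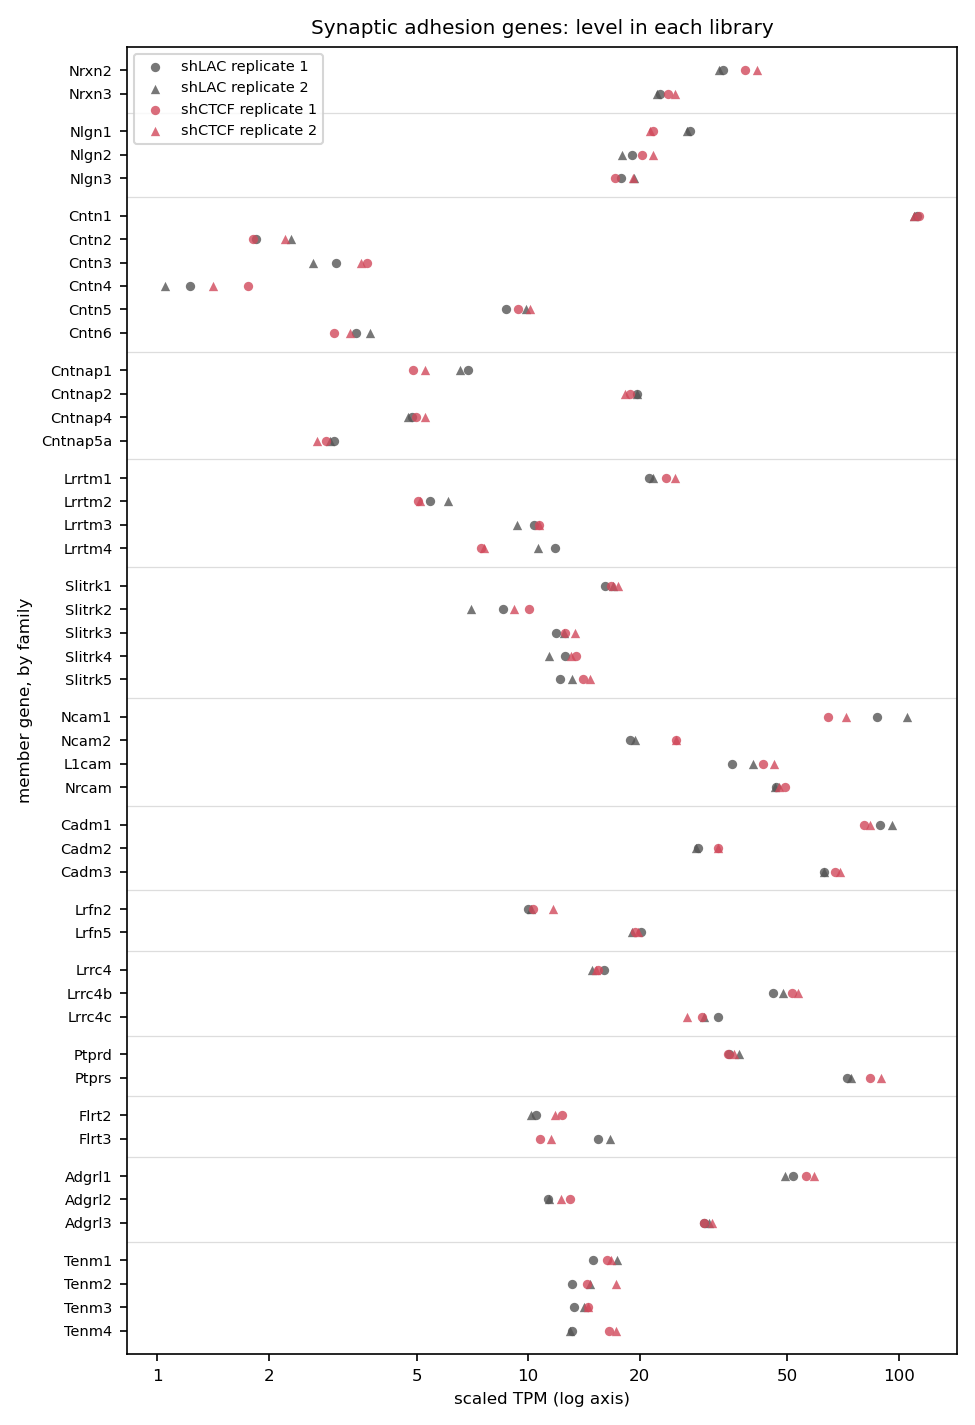
Scaled TPM (log axis) of each of the 47 members, grouped by family, with 1 point per library (grey, shLAC; red, shCTCF; circles, replicate 1; triangles, replicate 2). The groups separate clearly in Lrrtm4, Flrt3, Nlgn1, Ncam2 and Tenm4 and coincide in Cntn1, at 110 to 113 scaled TPM.

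On the presynaptic side, both neurexins measured here had higher values in knockdown, and 1 of them passed. Nrxn2 was at 33.6 and 32.7 scaled TPM in control and at 38.5 and 41.3 in knockdown. Both knockdown values lay above both control values (log2 fold change 0.26, SE 0.0538, limma adjusted p = 0.0443). Nrxn3 was at 22.6 and 22.3 against 23.9 and 24.9 scaled TPM, a separation that did not pass (log2 fold change 0.11, limma adjusted p = 0.224). Their summed level went from 55.6 ± 0.876 to 64.3 ± 2.76 scaled TPM (mean ± SD, n = 2).

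Of the 2 LAR-type phosphatases on the list, presynaptic organizers that bind SLITRK and NGL proteins among others, Ptprs rose and Ptprd did not pass. Ptprs was at 72.5 and 74.2 scaled TPM in control and at 83.8 and 89.6 in knockdown, with no overlap (log2 fold change 0.24, SE 0.0517, limma adjusted p = 0.0499). This was the called member nearest the threshold, and Cadm2, at 0.0686, was the nearest member outside it. Ptprd was at 34.8 and 37.1 against 34.6 and 35.9 scaled TPM, and its 95% interval of the log2 fold change ran from -0.15 to 0.10.

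Among the neuroligins, which bind neurexins from the postsynaptic side, Nlgn1 fell and the other two did not pass. Nlgn1, found mainly at excitatory synapses, was at 27.4 and 26.8 scaled TPM in control and at 21.7 and 21.3 in knockdown. The groups were far apart relative to the spread within each (log2 fold change -0.32, SE 0.0476, limma adjusted p = 0.0172). Nlgn2, found mainly at inhibitory synapses, had values of 19.0 and 17.9 against 20.3 and 21.7 scaled TPM, in the opposite direction and short of the threshold (log2 fold change 0.18, limma adjusted p = 0.135). Nlgn3 overlapped between groups, with a log2 fold change of -0.03. An antisense gene, A830092H15Rik, shares exonic positions with Nlgn1 and was at 4.75 to 7.65 TPM as deposited; without knowledge of strand, reads of the 2 genes cannot be told apart.

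The LRRTM genes, which encode leucine-rich repeat proteins that bind neurexins at excitatory synapses, held the member with the largest change. Lrrtm4 was at 11.8 and 10.6 scaled TPM in control and at 7.44 and 7.59 in knockdown, 66.9% of control (log2 fold change -0.52, SE 0.0662, limma adjusted p = 0.0107). Lrrtm1, the most abundant of the 4, was at 21.1 and 21.7 against 23.5 and 24.8 scaled TPM (log2 fold change 0.17, limma adjusted p = 0.122), and Lrrtm3 and Lrrtm2 did not pass, with log2 fold changes of 0.11 and -0.15. The summed level of the family was 48.3 ± 0.702 in control and 47.4 ± 1.10 scaled TPM in knockdown, with overlapping values, so the decrease of Lrrtm4 was not visible in the sum. Lrrtm1, Lrrtm2 and Lrrtm3 each lie inside a catenin gene on the other strand (Ctnna2, Ctnna1 and Ctnna3), and Lrrtm2 shares exonic positions with Ctnna1. Ctnna2 was at 36.6 and 28.5 TPM in control and at 48.9 and 46.3 in knockdown, as deposited. Ctnna1 reached 3.63 TPM and Ctnna3 0.51 TPM. Without knowledge of strand, reads of these catenin genes within the Lrrtm genes cannot be told apart.

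The Slitrk genes, postsynaptic partners of LAR-type phosphatases, all had positive log2 fold changes, and none of the 5 passed. They ran from 0.05 in Slitrk1, the most abundant, to 0.28 in Slitrk2, which was at 8.53 and 7.02 scaled TPM in control and at 10.1 and 9.13 in knockdown (limma adjusted p = 0.143). Their sum went from 61.1 ± 0.223 to 67.3 ± 0.603 scaled TPM, 110.1% of control, with both knockdown libraries above both controls. Of the Lrfn genes, Lrfn2 and Lrfn5 did not pass, with log2 fold changes of 0.11 and 0.00. Of the 3 Lrrc4 genes, whose products bind netrin-G proteins or LAR-type phosphatases, Lrrc4b was the most abundant, at 45.8 and 48.7 against 51.4 and 53.3 scaled TPM (log2 fold change 0.15, limma adjusted p = 0.158). Lrrc4 and Lrrc4c did not pass either, with log2 fold changes of -0.01 and -0.14.

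The FLRT genes, which encode ligands of latrophilins and of UNC5 receptors, moved apart. Flrt3 was at 15.4 and 16.6 scaled TPM in control and at 10.8 and 11.5 in knockdown, 69.5% of control (log2 fold change -0.49, SE 0.0621, limma adjusted p = 0.0107). Flrt2 was at 10.5 and 10.2 against 12.3 and 11.8 scaled TPM, in the other direction without passing (log2 fold change 0.21, limma adjusted p = 0.0777). In control Flrt3 was the more abundant of the pair, and in knockdown Flrt2 was slightly above it in both libraries. Flrt3 lies within the span of Macrod2 on the other strand, without sharing exonic positions with it. Macrod2 was at 15.5 and 14.2 TPM in control and at 17.2 and 17.5 in knockdown, as deposited. Without knowledge of strand, reads from its introns cannot be told apart from Flrt3 reads.

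The latrophilins, adhesion G protein-coupled receptors, had positive log2 fold changes in all 3 members and none passed. Adgrl1, the most abundant, was at 51.9 and 49.2 against 56.1 and 59.0 scaled TPM (log2 fold change 0.18, limma adjusted p = 0.0974). Adgrl2 had a log2 fold change of 0.14 and Adgrl3 of 0.01, with an interval from -0.11 to 0.13. Their partners, the teneurins, also had positive values in all 4 members, and Tenm4 rose. Tenm4 was at 13.1 and 13.0 scaled TPM in control and at 16.5 and 17.2 in knockdown, 129% of control (log2 fold change 0.35, SE 0.0518, limma adjusted p = 0.0172). Tenm2, at 13.1 and 14.6 against 14.4 and 17.2 scaled TPM, overlapped between groups, and Tenm1 and Tenm3 did not pass, with log2 fold changes of 0.03 and 0.08. In control the 4 teneurins were within 13.0 to 17.4 scaled TPM of one another, with Tenm4 lowest on average; in knockdown Tenm4 and Tenm1 had the highest means, at 16.9 and 16.5.

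Among the immunoglobulin-type adhesion molecules, the 2 NCAM genes changed in opposite directions. Ncam1, the main neural cell adhesion molecule, was at 87.4 and 105.0 scaled TPM in control and at 64.4 and 72.2 in knockdown, 71.0% of control (log2 fold change -0.49, SE 0.0953, limma adjusted p = 0.0389). Its control libraries differed more from each other than those of the other called members did, yet both stood above both knockdown libraries. Ncam2, its paralog, was at 18.9 and 19.4 scaled TPM in control and at 25.1 in each knockdown library (log2 fold change 0.37, SE 0.0478, limma adjusted p = 0.0107). L1cam, which acts in axon growth, was at 35.4 and 40.4 against 43.0 and 46.1 scaled TPM without passing (log2 fold change 0.23, limma adjusted p = 0.126), and Nrcam had a log2 fold change of 0.06.

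None of the 6 contactins or 3 Cadm genes passed. Cntn1, the most abundant member of all, was at 112 and 110.0 scaled TPM in control and at 113 and 109.7 in knockdown, and its 95% interval of the log2 fold change, from -0.10 to 0.12, was among the narrowest. Cntn3 and Cntn4 had the largest contactin changes, with log2 fold changes of 0.27 each and limma adjusted p of 0.0960 and 0.150, at levels below 4 scaled TPM. Cadm1, which encodes SynCAM1, had a log2 fold change of -0.16 and Cadm2 and Cadm3 of 0.18 and 0.12, so that the family sum stayed at 183 ± 4.62 and 183 ± 3.62 scaled TPM.

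Of the contactin-associated genes, Cntnap1 fell. It encodes Caspr, a partner of contactin at the paranodal junctions of myelinated axons, and was at 6.88 and 6.56 scaled TPM in control and at 4.90 and 5.26 in knockdown (log2 fold change -0.35, SE 0.0641, limma adjusted p = 0.0330). Cntnap2, the most abundant of the 4, was at 19.6 in each control and at 18.8 and 18.2 in knockdown (log2 fold change -0.08, limma adjusted p = 0.379). Cntnap4 and Cntnap5a did not pass, with log2 fold changes of 0.08 and -0.07.

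**Figure D2:**
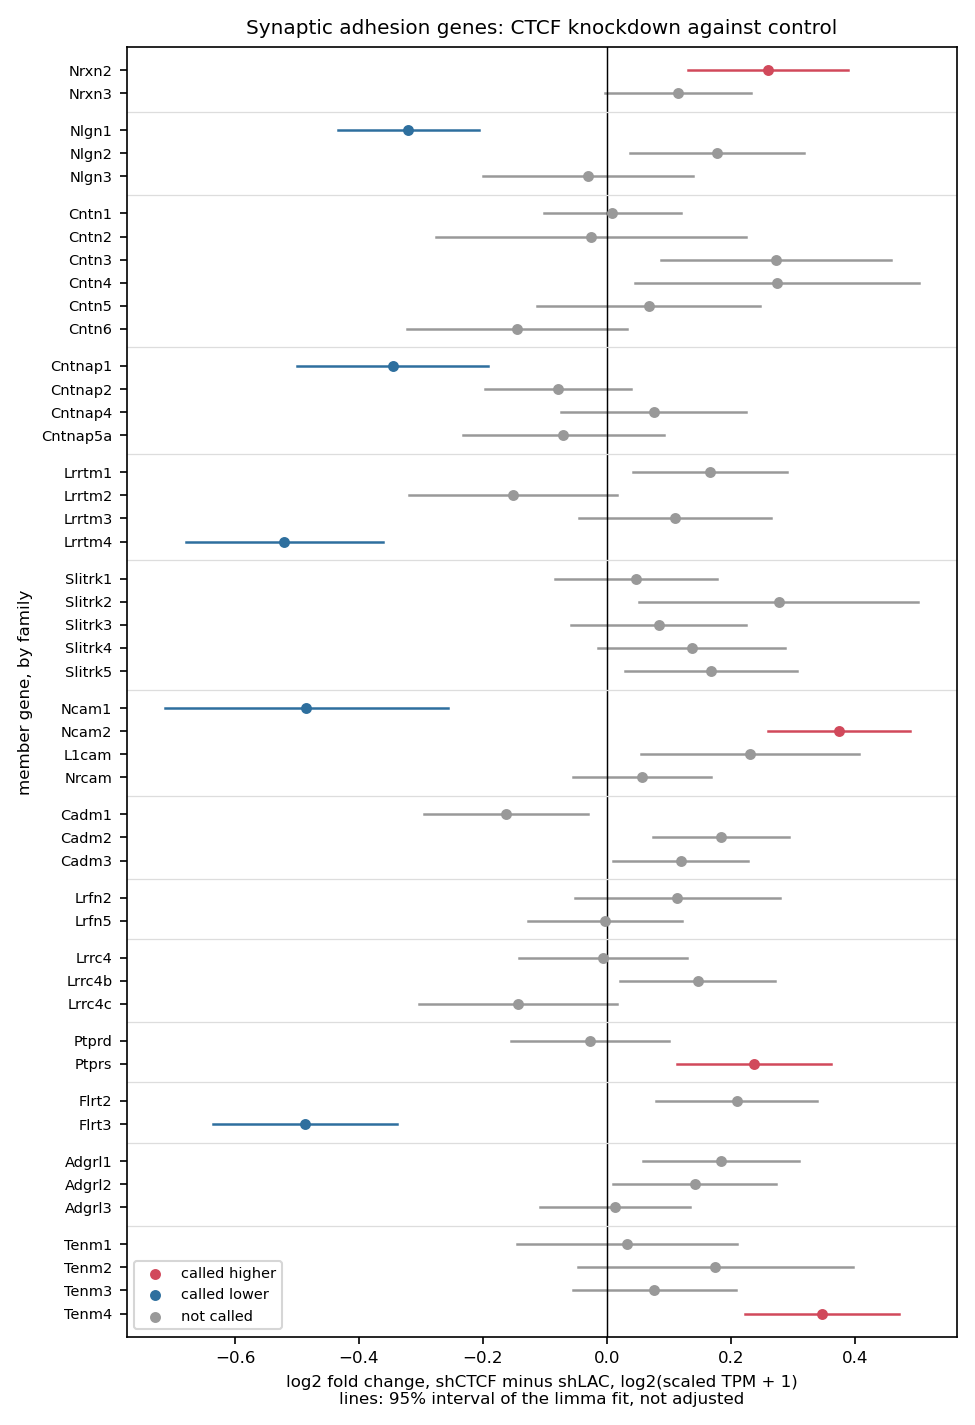
Log2 fold change of each member, shCTCF minus shLAC, on the log2(scaled TPM + 1) scale, with the unadjusted 95% interval of the limma fit (red, called higher; blue, called lower; grey, not called). The called members run from -0.52 in Lrrtm4 to 0.37 in Ncam2, and 4 families, neurexins, Slitrk genes, latrophilins and teneurins, have every point, though not every interval, to the right of 0.

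The ratio of a gene to its paralog within a library does not depend on how libraries are scaled. The pairs given here were chosen after their values were seen, so the ratios describe the change and do not test it. The ratio of Ncam2 to Ncam1 TPM was 0.216 and 0.185 in control and 0.390 and 0.348 in knockdown, 1.84 times higher on average. The ratio of Lrrtm1 to Lrrtm4 went from 1.79 and 2.05 to 3.16 and 3.27, and that of Flrt2 to Flrt3 from 0.678 and 0.612 to 1.15 and 1.03. The ratio of Nlgn2 to Nlgn1 went from 0.696 and 0.667 to 0.935 and 1.02. Of 6 pairs computed, the others were Tenm4 to Tenm1, at 0.873 and 0.748 against 1.01 and 1.03, and Nrxn2 to Nrxn3, at 1.49 and 1.47 against 1.61 and 1.66. Both genes of each of these last pairs had positive log2 fold changes. In all 6 both knockdown libraries lay above both controls, with 2 libraries per group, for which an exact two-sided permutation test can give no p below 0.333.

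**Figure D3:**
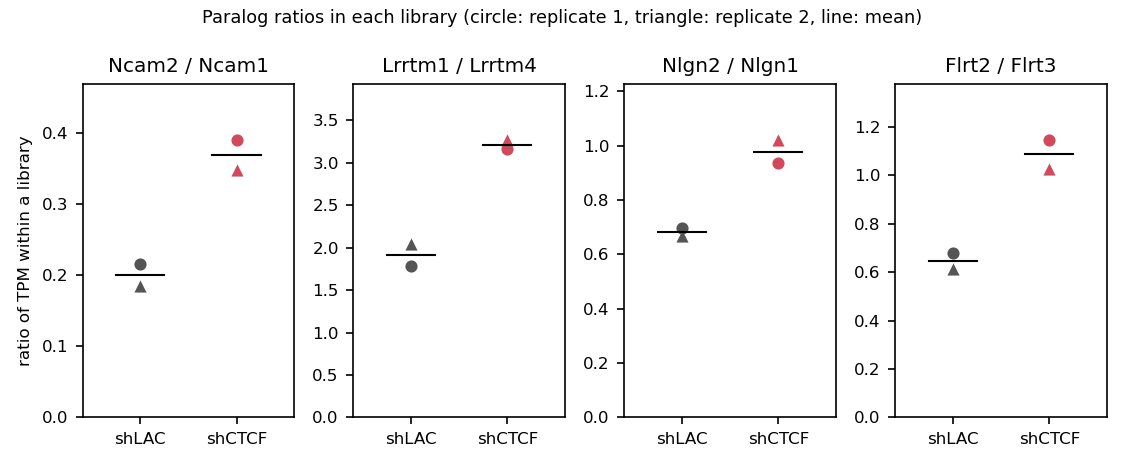
Ratio of the TPM of the 2 genes named above each panel, within each library (grey, shLAC; red, shCTCF; line, mean of 2 libraries; every axis starts at 0). Each ratio is higher in both shCTCF libraries, most in Ncam2 over Ncam1, at 0.185 and 0.216 in control and 0.348 and 0.390 in knockdown.

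Summed over families, 7 of 14 had both knockdown sums above both control sums, 3 had both below and 4 overlapped. Of single coding genes, 27.5% lay above and 27.1% below in this way, and no such share was computed for sums. The 7 families include the contactins and the Lrrc4 genes, at only 101% and 102% of control. The highest sums relative to control were those of the neurexins at 116%, the teneurins at 112%, the LAR-type phosphatases at 112% and the Slitrk genes at 110.1%. Each sum covers the listed members of a family only, which for the LAR-type phosphatases are Ptprs and Ptprd. The lowest were those of the FLRT genes at 88.2% and the contactin-associated genes at 92.3%. A sum follows its most abundant members: Cntn1 makes up most of the contactin sum, which was at 101% of control. As deposited, without scaling, all 14 mean sums lay above control, so the direction of the 6 sums that were below control after scaling depended on the scaling. The neuroligins were then at 108% of control, the contactin-associated genes at 105% and the Flrt genes at 101%. The Ncam and L1 genes were at 107%, the Lrrtm genes at 112% and the Cadm genes at 114%. Sums of the neuroligin, contactin-associated, Flrt and Lrrtm genes overlapped between groups as deposited.

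**Figure D4:**
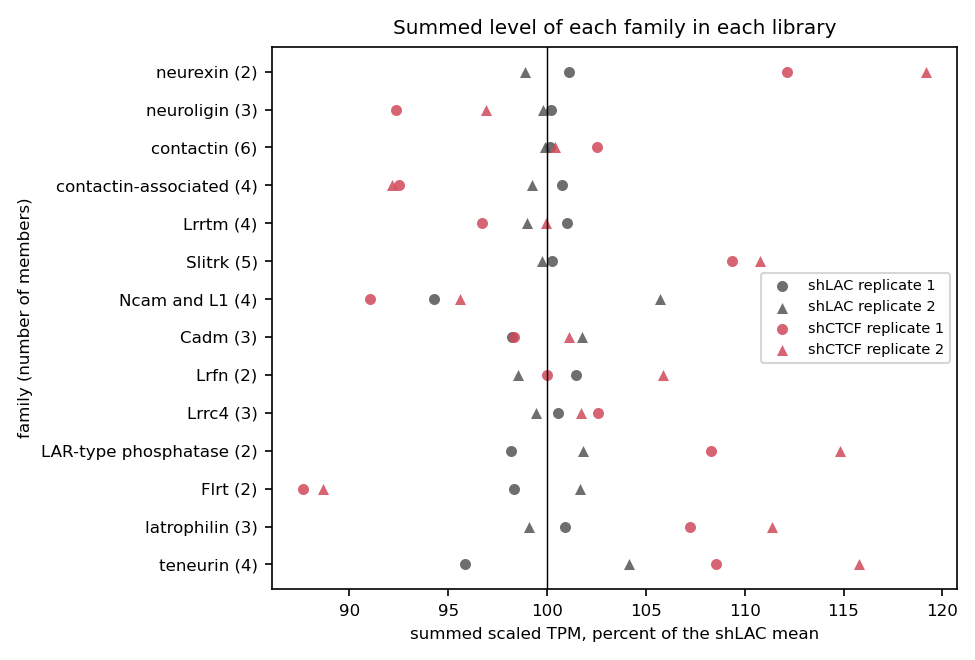
Sum of scaled TPM over the members of each family (number in parentheses) in each library, as percent of the mean of the 2 shLAC libraries (grey, shLAC; red, shCTCF; circles, replicate 1; triangles, replicate 2). Knockdown libraries lie to the right most for neurexins, Slitrk genes, LAR-type phosphatases, latrophilins and teneurins, and to the left for neuroligins, contactin-associated and Flrt genes, which as deposited lay at 108%, 105% and 101%.

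Over the whole list, 31 members had a positive and 16 a negative log2 fold change, with a median of 0.08, beside 49.9% positive and a median of 0.00 over all coding genes. Both knockdown values lay above both controls in 25 members and below in 11, beside 27.5% and 27.1% of coding genes. The 13 neuronal markers had a median of 0.11, with 12 positive, and 2 of them rose: Rbfox3, which encodes the neuronal nuclear protein NeuN, and Slc32a1, the vesicular transporter of inhibitory neurons (log2 fold changes 0.25 and 0.36, limma adjusted p = 0.0461 and 0.0462). Of these markers, 11 did not pass, and their summed scaled TPM was 1297 and 1327 in control and 1382 and 1353 in knockdown; the part of neuronal RNA in the members' values was not tested. Bulk RNA cannot tell fewer cells of a type from less RNA per cell. All 5 called decreases were at or below -0.32. Of the 38 uncalled members, 9 had a 95% interval of the log2 fold change within 0.20 of 0, among them Cntn1, Nrcam, Ptprd and Adgrl3, and 29 had intervals that reached further, so that changes of that size were not resolved in them.

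Markers of astrocytes were lower on average in knockdown after scaling. All 10 of 10 had a negative log2 fold change there, and Aqp4 and Slc1a3 fell (log2 fold changes -1.07 and -0.52, limma adjusted p = 0.0151 and 0.0204). The other 8 did not pass, and 5 of the 10 overlapped between groups. As deposited, Slc1a2 alone turned positive, with a log2 fold change of 0.07. Their summed scaled TPM was 141 and 118 in control and 112 and 88.5 in knockdown. The part of astrocyte RNA in the decreases of Lrrtm4, Flrt3, Nlgn1, Ncam1 and Cntnap1 was not tested. Of the oligodendrocyte lineage, whose cells bear on the axonal partner Cntnap1, 0 of 8 markers in the fit were called by limma. Of these markers, 1 had an unadjusted limma p below 0.05, beside 2662 of the 11268 coding genes. Olig1 and Pdgfra, the most abundant markers of this lineage, were at 33.4 and 17.7 scaled TPM on average, with log2 fold changes of 0.12 and 0.03. Mbp was at 2.00 scaled TPM on average, and the myelin genes Mog and Mag were below the filter. None of 8 genes in the proliferation list, which holds Nes, Vim and Sox2 besides cell cycle genes, was called by limma. The cycle genes Mki67 and Top2a had log2 fold changes of 0.08 and 0.05. Vim, the most abundant of the list, had 0.17 and was the 1 gene with an unadjusted limma p below 0.05. Dcn, a fibroblast gene, fell (log2 fold change -0.48, limma adjusted p = 0.0216), while the fibroblast genes Col1a1 and Col1a2 were at or below 0.10 TPM.

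The called extracellular partners of the members changed in both directions. Of 28 partners listed, 24 were in the fit, 3 rose, 1 fell and 20 did not pass, with a median log2 fold change of 0.07. This makes 16.7% of them called, beside 6.06% of all coding genes. Ntng2, which encodes netrin-G2, the axonal ligand of the Lrrc4 product, was at 11.0 and 9.63 scaled TPM in control and at 14.6 and 15.6 in knockdown (log2 fold change 0.51, SE 0.0733, limma adjusted p = 0.0159). Cbln1, a secreted bridge between neurexins and postsynaptic receptors, was at 3.23 and 3.41 scaled TPM in control and at 1.99 and 2.31 in knockdown (log2 fold change -0.46, SE 0.0789, limma adjusted p = 0.0264). Igsf9b, an adhesion protein of inhibitory synapses, rose by 0.34 and Unc5d, a receptor of FLRT proteins, by 0.29 on the log2 scale (limma adjusted p = 0.0336 and 0.0493).

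Of 10 further paralogs of the members, 8 were in the fit and Lrfn1 alone was called, with a log2 fold change of 0.31 (limma adjusted p = 0.0343). This makes 12.5% called, beside 6.06% of all coding genes. Slitrk6 and Adgrl4 were below the filter. Of 16 intracellular scaffold genes that bind adhesion molecules, Ank3 rose and 15 did not pass. The share called, 6.25%, was near the 6.06% of all coding genes. Ank3 encodes ankyrin-G, which anchors L1-type molecules at the axon initial segment. Ank3 was at 19.5 and 20.5 scaled TPM in control and at 30.3 and 31.6 in knockdown (log2 fold change 0.61, SE 0.0521, limma adjusted p = 0.00465). Its call also held over all 12816 genes (limma adjusted p = 0.0355). Of the 11 genes called outside the members, in the partner, paralog, scaffold and cell type lists, Ank3 was the 1 called there; the others, from Ntng2 to Slc32a1, had limma adjusted p between 0.0832 and 0.127. Dlg4, the postsynaptic scaffold PSD-95, had a log2 fold change of 0.05.

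**Figure D5:**
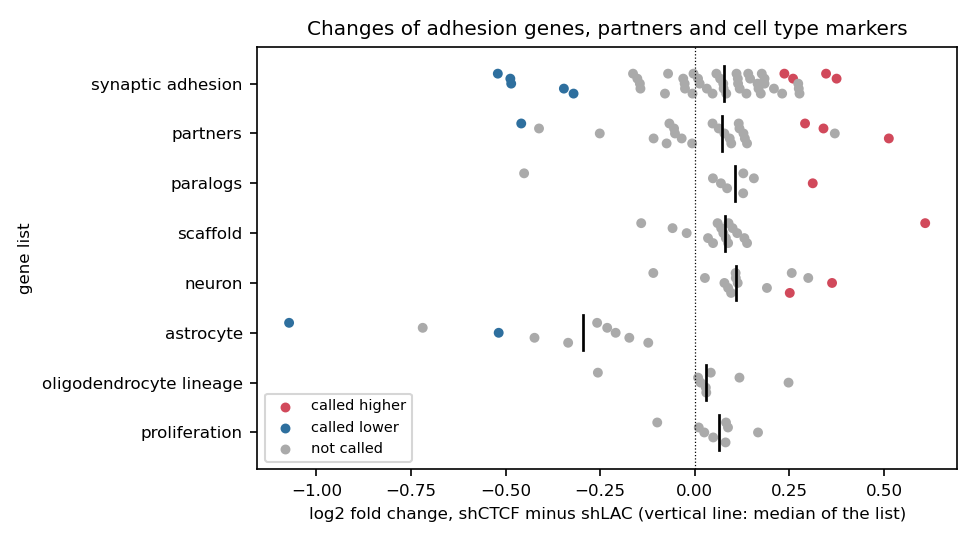
Log2 fold change of each gene in the fit, by list (1 point per gene; red, called higher; blue, called lower; grey, not called; vertical line, median of the list). The adhesion genes spread to both sides around a median of 0.08, beside 0.11 for neuronal markers, while every astrocyte marker lies to the left of 0.

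Many members occupy very long stretches of the genome. The median span was 273 kb, against 26.4 kb over the coding genes in the fit, and 15 of 47 members spanned more than 500 kb, against 1.70% of coding genes. Ptprd was the longest, at 2271 kb. Across the 47 members, log2 fold change and log10 span had Pearson's r = -0.08 and Spearman's rho = -0.12, and across 11268 coding genes r = 0.04 and rho = 0.04; these are correlations across genes that share the same 4 libraries. Of these 15 members, Nlgn1, Lrrtm4 and Tenm4 were called, in both directions, beside 23 of the 192 coding genes of such span.

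On GRCm38 the called members lie apart from one another, each on a chromosome of its own. Those that rose are Nrxn2 (ENSMUSG00000033768) at chr19:6418731-6544169 on the + strand, Ncam2 (ENSMUSG00000022762) at chr16:81200697-81626828 on the + strand, Ptprs (ENSMUSG00000013236) at chr17:56412426-56476483 on the - strand and Tenm4 (ENSMUSG00000048078) at chr7:96171246-96911093 on the + strand. Those that fell are Nlgn1 (ENSMUSG00000063887) at chr3:25426215-26332460 on the - strand, Cntnap1 (ENSMUSG00000017167) at chr11:101170523-101190724 on the + strand and Lrrtm4 (ENSMUSG00000052581) at chr6:80018877-80810143 on the + strand. Ncam1 (ENSMUSG00000039542) lies at chr9:49502136-49798925 on the - strand and Flrt3 (ENSMUSG00000051379) at chr2:140650914-140671469 on the - strand. Apart from Nlgn1, the genes whose exons overlap those of a called member were at or below 1.49 TPM where the files list them.

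Of the 9 calls, those of Lrrtm4 and Flrt3 held when each library was left out in turn. Without shCTCF replicate 1, Ncam2 and Tenm4 were also called, and without shCTCF replicate 2 no other member was. Without shLAC replicate 2, the library with the satellite-like transcripts, all 9 were called with L1cam besides, and limma adjusted p of the 9 reached 0.0406. Without shLAC replicate 1 all 9 were again called, and 13 members in all. Each of the 9 kept its direction in all 15 alternative settings run, the unscaled values included.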

How the data were processed

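RNA was measured in 4 libraries of primary mouse cortical culture, 2 per group, grouped by their titles. The deposited values are TPM per Ensembl gene, 1 file per library, made by the authors; RSEM 1.2.28, CASAVA and mm10 are named in the submitters' processing notes, while strandedness and annotation release have no source here. TPM keeps no depth, so no counting interval is given. GENCODE vM21 names on GRCm38 (the assembly of mm10) matched 37060 of 37437 identifiers. Protein-coding genes of at least 300 exonic nt that reached 1 TPM in 2 or more libraries were kept, without satellite-like predicted genes (at least 100 TPM in a library and a 10-fold range), scaled by median ratios, and log2(TPM + 1) was fitted by limma 3.58.1 (R 4.3.3) using a trended prior and no covariate. Fold changes on this scale understate those of low genes. Every called member was named with its values, and of the others at least the most abundant of each family; from other lists, called genes. The paralog pairs were picked after their values were seen. Members, lists and this choice of fit were made with earlier results of these data known. Alternatives were other scalings, gene sets, filters, pseudocounts and priors, a block for replicate number, and leaving out libraries in turn.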

Additional observations from a re-analysis of the deposited data

How the results depend on the processing

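The members called higher (4) and lower (5) became 0 and 0 in the unscaled coding genes and in both fits over all genes past the filter, 2 and 3 with no filter, and 2 higher with a constant prior. With each library left out they ranged from 0 to 7 higher and from 2 to 6 lower; a group of 1 library is then taken to vary like the other. The 683 called coding genes became 165 unscaled, 134 over all genes scaled, 362 over all genes as deposited, 220 with no filter, 400 at a mean of at least 5 TPM, and 182 to 1125 with a library left out: 1125 without shLAC replicate 1, 1052 without shLAC replicate 2, 346 without shCTCF replicate 1 and 182 without shCTCF replicate 2. With a replicate block 1313 coding genes and 14 members, 9 of them higher, were called; deviations of the libraries numbered 1 correlated at r = 0.25 across genes, and with 2 pairs the number is not taken as a pairing. Other alternatives left these counts within 1.5 times, among them factors taken from all genes, an alternative chosen after seeing the data; Ptprs was not called there, under quantile normalization or at a mean of at least 5 TPM. The cause was not tested. All 9 called members kept their direction. Of 38 uncalled members 15 changed sign in some setting. As deposited, whether over coding or all genes, these log2 fold changes turned positive: Nlgn3 0.16, Cntn2 0.11, Cntn6 0.0086, Cntnap2 0.11, Cntnap5a 0.076, Lrrtm2 0.017, Cadm1 0.035, Lrfn5 0.19, Lrrc4 0.18, Lrrc4c 0.050 and Ptprd 0.17. Quantile normalization gave Lrrc4 0.00032. With each library left out in turn, Nlgn3 ranged from -0.107 to 0.047, Cntn1 from -0.015 to 0.033, Cntn2 from -0.131 to 0.082, Cntn5 from -0.013 to 0.149, Lrfn5 from -0.041 to 0.034, Lrrc4 from -0.059 to 0.047, Ptprd from -0.071 to 0.018, Adgrl3 from -0.023 to 0.050 and Tenm1 from -0.068 to 0.132. TPM gives no depth, so what sequencing depth limits is unknown.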
